A study of Mus musculus with 4 samples.

Results

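The glycolysis and hypoxia genes described here are 32 genes of 31253 in the deposited tables, matched by symbol. 19 of them move glucose and lactate across the cell membrane or carry out and regulate glycolysis, and 13 are genes known to be switched on when oxygen is low. All 32 symbols were found, on 33 rows, since Aldoa stands on 2 rows that were added together. Single cells came from tumours of CT26, a colon carcinoma line of the mouse, and from tumour-draining lymph nodes (TDLN), in female mice aged 4-8 weeks. Each tissue had a NanoCa and a mock group, so that there were 4 groups, with 1 library each and 1 batch date for all. The series title speaks of a lipid nanoparticle with a calcium crystal structure for immunotherapy through interferon beta, and NanoCa is the treatment name on the samples. The mock libraries are tagged as untreated, although their treatment protocol field names NanoCa, so each NanoCa to mock ratio rests on the titles and tags. The sources used here do not give the number of mice behind a library. With 1 library per group no test is possible, there are no p-values, and all intervals reflect counting error only.

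Glycolysis splits glucose to pyruvate in the cytosol and yields ATP without oxygen, and lactate dehydrogenase then turns pyruvate into lactate, which leaves the cell. When oxygen is low, the prolyl hydroxylases that mark hypoxia-inducible factor 1 alpha for destruction slow down, and the stabilised factor binds short ACGTG or GCGTG motifs with its partner Arnt. Its known targets include both glycolytic enzymes and genes for blood vessel growth, pH control, mitophagy and collagen modification. Activated T cells also raise glycolysis when they divide, and macrophages and neutrophils rely on it heavily.

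The promoters of the members are shown first, for the motif of hypoxia-inducible factor. The lists hold known targets of this factor, so the motif counts are not independent of the choice of genes. In the 250 bases upstream of RefSeq start sites (GRCm38.p6), ACGTG or GCGTG was sought on both strands, so that CACGT and CACGC also count. At least 1 match stood in 25 of 31 windows of the glycolysis members (80.6%) and in 13 of 18 windows of the hypoxia members (72.2%), against 12679 of 32851 windows of all genes (38.6%). By gene, 17 of the 19 glycolysis members had a match, all but Gpi1 and Tpi1, and so did the 12 hypoxia members with an entry in the table, against 11226 of 27025 genes in all (41.5%). Each of these motifs holds CG, and the windows of all genes were not matched to the members for CG content. Ndrg1 had no entry, and Ero1l was matched as Ero1a. The 4 windows below were chosen after the values were seen: Bnip3 and Car9 were lower with NanoCa in the tumour Ptprc-low cells described further on, P4ha2 in monocytes and macrophages, and Ankrd37 in T cells. Bnip3, P4ha2, Car9 and Ankrd37 are read from chr7:138909507-138909756, minus strand, chr11:54100674-54100923, plus strand, chr4:43506776-43507025, plus strand and chr8:45999851-46000100, minus strand. Each is written 5′ to 3′ towards the start site, and the capitals mark the matches.

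Bnip3: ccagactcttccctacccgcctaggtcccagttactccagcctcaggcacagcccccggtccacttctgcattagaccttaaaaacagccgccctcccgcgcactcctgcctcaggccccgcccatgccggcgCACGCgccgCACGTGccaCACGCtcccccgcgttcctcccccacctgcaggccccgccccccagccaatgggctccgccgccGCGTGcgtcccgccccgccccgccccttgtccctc
P4ha2: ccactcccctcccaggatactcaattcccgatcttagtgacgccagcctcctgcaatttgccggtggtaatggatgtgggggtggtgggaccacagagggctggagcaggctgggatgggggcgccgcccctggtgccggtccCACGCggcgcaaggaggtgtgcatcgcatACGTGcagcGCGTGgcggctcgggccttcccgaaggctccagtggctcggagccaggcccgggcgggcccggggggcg
Car9: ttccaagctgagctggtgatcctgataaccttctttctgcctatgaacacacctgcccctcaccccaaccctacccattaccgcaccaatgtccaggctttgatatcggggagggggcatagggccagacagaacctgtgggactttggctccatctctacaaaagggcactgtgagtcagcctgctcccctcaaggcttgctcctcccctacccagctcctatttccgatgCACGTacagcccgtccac
Ankrd37: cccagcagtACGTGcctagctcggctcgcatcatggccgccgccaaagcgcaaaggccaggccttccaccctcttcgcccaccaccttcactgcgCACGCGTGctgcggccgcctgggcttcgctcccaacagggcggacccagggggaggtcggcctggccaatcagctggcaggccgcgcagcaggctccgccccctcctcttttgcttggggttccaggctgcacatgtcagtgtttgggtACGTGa

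Bnip3 had 5 matches, of which CACGT and ACGTG overlap in 1 run and count as 2, Ankrd37 had 4, of which CACGC and GCGTG overlap, P4ha2 had 3 and Car9 had 1. Of all windows, 16.7% held 2 or more matches. A match is only a run of letters, and the sources used here do not give the authors' genome build.

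The libraries held 167924801 (NanoCa) and 148121144 (mock) UMIs in the tumours and 74909974 (NanoCa) and 106579362 (mock) in TDLN, and 10209, 8592, 10043 and 9425 cells were kept. Pairs of libraries shared 120 to 179 barcodes, at most 1.63% of a library. Levels are in CPM, a gene's share of the UMIs of a cell class in a library scaled to a total of 1000000, and such levels are compared between classes or libraries, never between genes. Clusters were named from marker genes, so that a name such as T cells or fibroblasts means cells like that type. The labels describe immune cells stained for CD45, but 6355 tumour NanoCa cells and 5361 tumour mock cells (62.2% and 62.4%) fell in 11 clusters nearly without Ptprc, the gene of CD45. In these cells Ptprc was at 2.21 and 2.60 CPM, and Xist, which female cells use to silence an X chromosome, was at 1.19 and 1.36 CPM. Tumour T cells had 516 and 529 CPM of Ptprc and 257 and 278 CPM of Xist. Only 5 of the 11 clusters met the marker rule for CT26-like cells, so the 11 are treated as 1 class, Ptprc-low Xist-low cells, and given no cell type name. They also made up 3.27% (328 cells) of TDLN NanoCa and 10.9% (1025 cells) of TDLN mock. RNA outside cells is a further source of counts. It was estimated from Krt8, Krt18 and Rhox5 together. The Ptprc-low cells carry mainly Rhox5, for example 323 CPM in their largest tumour cluster, against 2.35 of Krt8 and 25.7 of Krt18. Krt8 and Krt18 were higher in tumour fibroblasts, at 207 and 287 CPM. In TDLN they were highest in an unnamed cluster of 2 NanoCa and 12 mock cells, at 3396 and 5624 CPM. The part of these cells in the estimate was not tested. This measure put free RNA in tumour T cells at 28.3% (NanoCa) and 23.1% (mock) of the level in the whole library. The same measure gave 27.8% and 32.8% in tumour B cells, 15% and 15.2% in NK cells, 12.2% and 11.4% in monocytes and macrophages, and 67.5% and 60.9% in neutrophils. TDLN values were 9.09% and 13.1% (T cells), 9.07% and 11.3% (B cells) and 11.4% and 12.5% (NK cells).

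Summed over the 19 genes, glycolysis members were highest in the Ptprc-low Xist-low cells of both tissues and lowest in lymph node dendritic cells. The Ptprc-low cells held 10823 CPM in tumour NanoCa, 11805 in tumour mock, 10849 in TDLN NanoCa and 11845 in TDLN mock. The exception was the 62 endothelial cells of tumour mock, with 12139 CPM, against 7909 in the 86 of tumour NanoCa. Monocytes and macrophages followed with 9033 and 10761 CPM in the tumours. Tumour T cells had 6217 and 6829.6 CPM and TDLN T cells 3618 and 4073. TDLN mature dendritic cells had 2402 and 2746 CPM, and plasmacytoid dendritic cells 2433 and 2859.

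The 13 hypoxia members were ordered differently. Their sum was 1015 (NanoCa) and 1396 CPM (mock) in tumour neutrophils, 1065 and 948 CPM in fibroblasts, and 664 and 1372 CPM in endothelial cells. The Ptprc-low cells, with the most glycolysis counts, had 626 and 791 CPM, below monocytes and macrophages with 734 and 965. TDLN mature dendritic cells joined 630.4 and 495 CPM of hypoxia members to low glycolysis sums. TDLN B cells had 179 and 164 CPM. Neutrophil values rest on 89 and 126 cells with few counts each and the most free RNA, 67.5% and 60.9%.

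**Figure D1:**
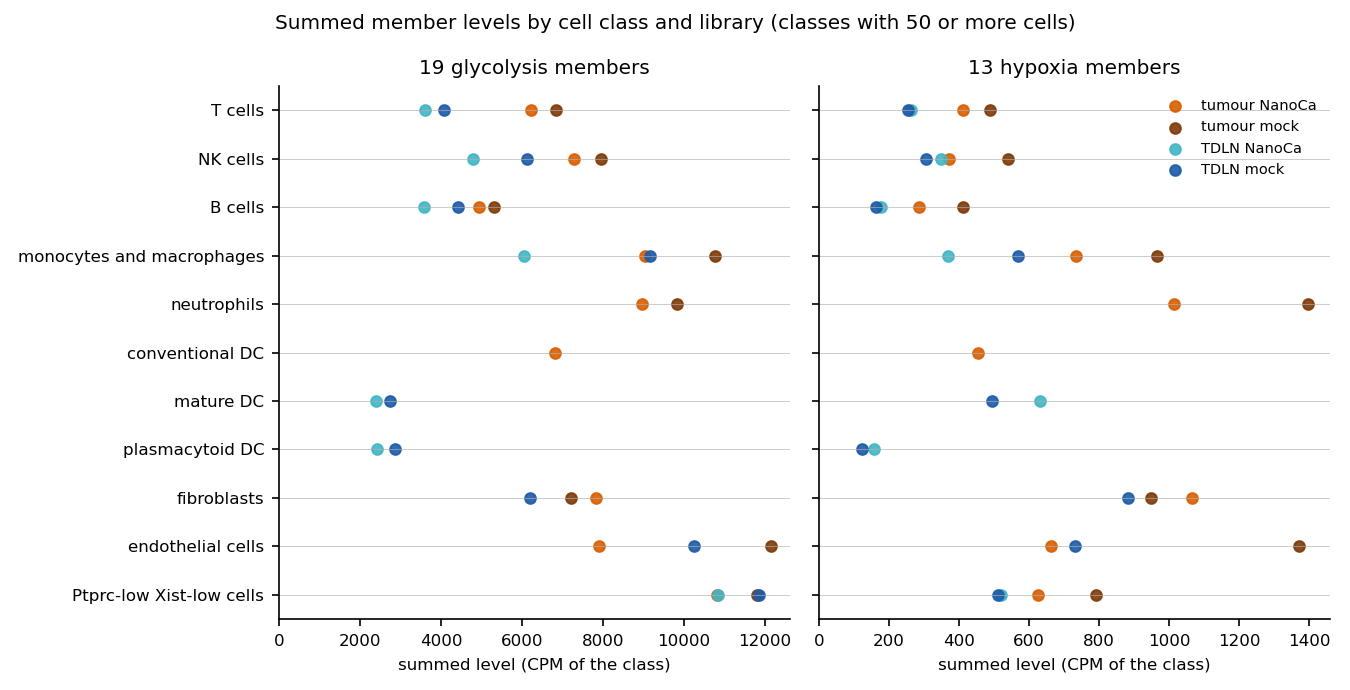
Summed levels of the 19 glycolysis members (left) and the 13 hypoxia members (right) in CPM, by cell class (rows) and library (colours), for classes with 50 or more cells. Ptprc-low Xist-low cells lie between 10823 and 11845 on the left, while mock neutrophils and mock endothelial cells reach furthest on the right panel, at 1396 and 1372.

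Of the transporters, Slc2a1, the glucose transporter GLUT1, was at 384 CPM in NanoCa and 319.7 CPM in mock neutrophils, on 48 and 71 UMIs. It was next in monocytes and macrophages, at 100.5 and 150.3 CPM, with intervals that did not overlap those of neutrophils in either library. In TDLN it was highest in plasmacytoid dendritic cells, at 217 CPM (95% interval 183 to 255) in NanoCa and 200.2 CPM (95% interval 164 to 242) in mock, and lowest in mature dendritic cells, at 21.0 and 14.7 CPM. Slc16a3, the lactate exporter MCT4, was at 991 and 792 CPM in tumour neutrophils against 3.65 and 9.08 in tumour B cells. Tumour B cells were also low for Slc2a1, with 39.2 and 63.6 CPM.

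In upper glycolysis, the isoforms parted by cell class. Hk2, the inducible hexokinase, was highest in fibroblasts, at 116 and 119.6 CPM in the tumours and 102 in TDLN mock. In tumour mock the interval overlapped that of neutrophils, at 67.5 CPM. Hk2 was lowest of the tumour classes in B cells, at 8.20 and 11.7, on 9 UMIs each. Pfkp, the platelet form of phosphofructokinase, was lowest in Ptprc-low cells in all 4 libraries, from 11.7 to 14.3 CPM, and stood between 136 and 149.7 CPM in NK cells. Pfkm, the muscle form, had its highest level in Ptprc-low cells in 3 of 4 libraries (13.3, 13.7 and 15.8 CPM), though in tumour mock and TDLN mock its interval overlapped that of the next class. Aldoc, the brain form of aldolase, stayed at 1.16 and 3.59 CPM in the tumour Ptprc-low cells and reached 20.5 in conventional dendritic cells of tumour NanoCa, on 9 UMIs.

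Of the enzymes of lower glycolysis, Tpi1, Pgk1, Pgam1, Eno1 and Ldha were highest in the Ptprc-low cells in all 4 libraries. Gapdh was highest there in 3 libraries, and in tumour mock it was highest in endothelial cells, at 2131 CPM, against 1819 in monocytes and macrophages and 1782 in the Ptprc-low cells. Pkm, the pyruvate kinase of most tissues, was highest in the Ptprc-low cells of TDLN NanoCa only, at 1126 CPM. In tumour NanoCa it was highest in monocytes and macrophages, at 1171 CPM, and in both mock libraries in endothelial cells, at 1722 and 1932 CPM. Pgk1, phosphoglycerate kinase, was at 860.2, 1017, 830.2 and 753 CPM there (tumour NanoCa, tumour mock, TDLN NanoCa, TDLN mock), and at 323, 344, 173 and 225 CPM in B cells. Ldha, the lactate dehydrogenase subunit that favours lactate, was at 1886, 2109, 1449.8 and 1718 CPM in the Ptprc-low cells and at 111 and 153 CPM in TDLN mature dendritic cells. Eno1 shares sequence with Eno1b, counted on its own row, so how reads were split between the copies is uncertain.

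The regulators make fructose-2,6-bisphosphate, the activator of phosphofructokinase. Pfkfb3 was at 509 CPM (95% interval 466 to 556) and 468 CPM (95% interval 431 to 508) in mature dendritic cells of TDLN NanoCa and TDLN mock, on 509 and 574 UMIs. The next class of those libraries reached 45.5 (monocytes and macrophages) and 41.8 CPM (endothelial cells). In the Ptprc-low cells it stayed between 0.358 and 0.855 CPM in the 4 libraries. The mature dendritic cells, low for the enzymes, were thus the highest class for Pfkfb3 in TDLN. Pfkfb4 was highest in neutrophils of the tumours, at 40.0 and 22.5 CPM, with intervals overlapping the next class.

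The hypoxia members were highest in different classes. Vegfa, the main growth signal for blood vessels, was at 126 and 181 CPM in tumour monocytes and macrophages and at 164 and 134 in fibroblasts. NK cells carried it at 106, 131, 114 and 111 CPM in the 4 libraries, whereas T cells had 21.1, 29.9, 7.14 and 8.22. The NK intervals of the 4 libraries overlapped. Adm, the vasodilator peptide adrenomedullin, was highest in tumour endothelial cells, at 99.3 CPM (95% interval 79.2 to 123) in NanoCa and 188 CPM (95% interval 154 to 227) in mock. Fibroblasts had 77.6 and 61.0 CPM, with an interval that overlapped in NanoCa. TDLN mature dendritic cells had 62.0 and 53.1 CPM of Adm, while the tumour Ptprc-low cells had 11 and 8 UMIs in all. No Adm UMI was seen in neutrophils, which at their depth allows up to 24.0 and 13.5 CPM. Egln3, the prolyl hydroxylase that hypoxia itself induces, was at 192 CPM (95% interval 123 to 286) and 248 CPM (95% interval 187 to 322) in NanoCa and mock neutrophils, against at most 47.8 CPM in any other tumour class. In TDLN it was highest in NK cells, with 32.6 and 26.7 CPM, with intervals overlapping the next class in both libraries.

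Bnip3, a mitophagy receptor of the outer mitochondrial membrane, was highest in tumour neutrophils, at 199.9 and 239 CPM, with intervals that overlapped those of monocytes and macrophages. Its lowest tumour class was NK cells in NanoCa (19.7 CPM) and T cells in mock (48.5 CPM). Car9, the membrane carbonic anhydrase that exports acid, was at 7.62, 13.5, 14.8 and 5.93 CPM in the Ptprc-low cells. In T cells Car9 was between 0.527 and 2.24 CPM, on 3 to 16 UMIs a library. Ndrg1, a stress-induced differentiation gene, was highest of the TDLN classes in mature dendritic cells, at 351 and 269 CPM. P4ha2, a collagen prolyl hydroxylase, was at 166, 142 and 156 CPM in fibroblasts and at 14.2 and 19.6 in tumour Ptprc-low cells. Ankrd37, an ankyrin-repeat protein, was highest in tumour endothelial cells, at 104 and 174 CPM. Kdm3a, a histone H3 lysine demethylase, was highest in TDLN in T cells, at 55.3 and 47.0 CPM, although the interval of the mock endothelial cells overlapped.

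The comparison of NanoCa with mock in the tumours asks how the treatment bears on glycolytic and hypoxia RNA in each class. Most measured members had ratios below 1 in each of 5 classes (Ptprc-low, monocytes and macrophages, T, NK and B cells), mostly by small factors, and none was higher by 1.5-fold. A member was counted as measured with 50 or more UMIs over both libraries, and called past the fold at a ratio of 1.5 or more either way. Tumour fibroblasts, with 166 and 85 cells, had too few for a ratio, and their sums were higher with NanoCa. These were 7826 and 7206 CPM of glycolysis members and 1065 and 948 of hypoxia members (NanoCa, mock). Neutrophils and endothelial cells, also too few for a ratio, had both sums lower with NanoCa. In the Ptprc-low cells, 17 of 19 glycolysis members and 11 of 11 measured hypoxia members had ratios below 1. Their median log2 ratios of NanoCa to mock were -0.19 (counting range -0.25 to -0.15) and -0.31 (counting range -0.33 to -0.26), against 0.015 over all 13784 genes measured. Only 1 glycolysis and 2 hypoxia members were lower by 1.5-fold, where 4.34% of all genes were lower and 6.14% higher by that factor. Adm and Egln3 were not measured there. Signs of RNA quality moved with treatment in the same cells. Mitochondrial UMIs were 1.43% with NanoCa and 1.79% in mock, and the nuclear RNA Malat1 was at 1313 and 1859 CPM, at 20679 and 22065 UMIs per cell. Both were lower with NanoCa in all 10 clusters of 50 or more cells in each library, Malat1 by a median log2 ratio of -0.48 and the mitochondrial share by -0.32. The other 4 tumour classes had less of both with NanoCa too, for example 1846 and 2158 CPM of Malat1 in monocytes and macrophages and 1.24% and 1.53% mitochondrial UMIs in T cells. The part of RNA quality in the ratios of NanoCa to mock was not tested.

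By role, the transporters Slc2a1 and Slc16a3 stood at 65.3 and 80.5 CPM and at 27.9 and 35.7 CPM (NanoCa, then mock), with log2 ratios of -0.30 and -0.36. In upper glycolysis, Hk2 was at 23.6 and 35.2 CPM, a log2 ratio of -0.58 (95% interval -0.65 to -0.51), just short of 1.5-fold. Aldoc was at 1.16 and 3.59 CPM, with a log2 ratio of -1.64 (95% interval -1.91 to -1.36), the lowest of all members at a low level. The enzymes of lower glycolysis differed less. Pgk1 stood at 860.2 and 1017 CPM (log2 ratio -0.24), Ldha at 1886 and 2109 CPM (-0.16), and Eno1 and Gapdh had log2 ratios of -0.013 and 0.020. The ratios of these abundant enzymes thus lay nearer to 1 than those of Slc2a1 and Hk2.

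Among the hypoxia members, Bnip3 was at 71.0 and 126 CPM, a log2 ratio of -0.82 (95% interval -0.86 to -0.79). Car9 was at 7.62 and 13.5 CPM, a log2 ratio of -0.82 (95% interval -0.94 to -0.71). Ankrd37 came next, at 16.9 and 25.1 CPM and a log2 ratio of -0.57, and Vegfa was at 67.9 and 82.7 CPM, with -0.29. Ero1l, which oxidises proteins in the endoplasmic reticulum, had the ratio nearest to 1, at -0.053 on the log2 scale. In the narrower CT26-like clusters the medians were -0.17 and -0.21, with 0.065 over all genes. There the members lower by 1.5-fold were Pfkp (-0.69), Aldoc (-2.35), Bnip3 (-0.69) and Ndrg1 (-0.62), where 2.33% of all genes were lower and 10.3% higher, and Car9 had a log2 ratio of -0.36. Pfkp and Ndrg1 were short of the fold without doublet removal, at -0.30 and -0.45, and also under the other clusterings and with each cluster given one weight, while Aldoc stood at -1.58 to -1.64 without doublet removal and under the other clusterings. Of 23 measured further hypoxia genes, 17 had ratios below 1 (median -0.23), and Loxl2, a lysyl oxidase, was the single one past the fold, 0.517 and 0.330 CPM. Hif1a itself was at 49.0 and 55.3 CPM (log2 ratio -0.17), and the 28 cell cycle genes had a median of 0.11.

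Monocytes and macrophages had 18 of 19 glycolysis and 10 of 13 hypoxia members below a ratio of 1. The medians were -0.24 (counting range -0.43 to -0.17) and -0.24 (counting range -0.59 to 0.065), against 0.10 over all genes. Hk2 was at 35.3 and 54.5 CPM, a log2 ratio of -0.63 (95% interval -0.89 to -0.37), and P4ha2 at 6.15 and 10.8 CPM, with -0.81 (95% interval -1.44 to -0.19). Of all 32 members these 2 were lower by 1.5-fold, where 3% of all genes were lower and 8.72% higher. Just short of the fold were Slc2a1, at 100.5 and 150.3 CPM (-0.58), Ndrg1, at 158 and 234 CPM (-0.57), and Vegfa, at 126 and 181 CPM (-0.52). Bnip3 was at 122 and 173 CPM (-0.50), Pgk1 at 550.3 and 714 CPM (-0.38) and Ldha at 1300.3 and 1540.0 CPM (-0.24). Pfkm, Adm, Car9 and Mxi1 had ratios above 1, with intervals that spanned 1, and Egln3 stood at 10.8 and 14.1 CPM (-0.38). Of the further hypoxia genes, 4 of 16 measured were lower by 1.5-fold, among them Hilpda, a lipid droplet protein, at 271 and 435 CPM, and Rab20, a vesicle GTPase, at 112 and 173 CPM. Of the further glycolysis genes, Hk3, at 56.4 and 101 CPM, Slc2a6 and Pgm1 were lower by that factor out of 18, and Hif1a was at 139.7 and 175 CPM (-0.32). With the scaling set by TMM or median-of-ratios factors, 2 glycolysis and 3 or 4 hypoxia members were past the fold.

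Tumour T cells had medians of -0.16 (counting range -0.35 to 0.027) for 16 measured glycolysis members and -0.49 (counting range -0.93 to 0.082) for 9 hypoxia members, against 0.036 over all genes. Both ranges reached past 0. No glycolysis member was past the fold, and the nearest was Slc16a3, at 22.9 and 31.4 CPM (-0.45). Slc2a1 was at 44.0 and 51.1 CPM, Hk2 at 12.3 and 15.7 CPM, Pgk1 at 393 and 455 CPM and Ldha at 1113 and 1256 CPM, with log2 ratios of -0.22, -0.35, -0.21 and -0.18. Ankrd37 was at 13.5 and 35.5 CPM, a log2 ratio of -1.39 (95% interval -2.12 to -0.72), and Kdm3a at 25.2 and 41.8 CPM, with -0.73 (95% interval -1.27 to -0.21). By that factor 4.04% of all genes were lower and 7.9% higher. Bnip3 was at 33.5 and 48.5 CPM (-0.54) and Vegfa at 21.1 and 29.9 CPM (-0.50), while P4ha1, a collagen hydroxylase subunit, was at 111 and 96.3 CPM (0.20). The further hypoxia gene Hilpda was lower, at 103 and 166 CPM, and Insig2, a sterol regulator, higher, at 27.0 and 17.5 CPM, of 15 measured. Adm, Egln3 and Car9 had under 50 UMIs over both libraries, with Egln3 at 9.98 and 6.35 CPM and Car9 at 1.76 and 2.24 CPM. Hif1a was at 242 and 275 CPM (-0.18). With free RNA subtracted, or with each cluster given one weight in both libraries, 4 hypoxia members were past the fold in place of 2, and the subtracted medians were -0.25 and -0.49.

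NK and B cells had medians below 0 as well, on fewer counts. In NK cells Bnip3 was at 19.7 and 60.2 CPM, a log2 ratio of -1.61 (95% interval -2.52 to -0.79), on 15 and 71 UMIs. Slc2a1 was at 44.6 and 71.2 CPM (-0.67), Ndrg1 at 57.8 and 94.9 CPM (-0.72) and Kdm3a at 23.6 and 39.0 CPM (-0.72). These were 1 of 13 measured glycolysis and 3 of 7 measured hypoxia members lower by 1.5-fold, with 4.2% of all genes lower and 7.3% higher. Without doublet removal Ndrg1 and Kdm3a stood at -0.30 and -0.32, short of the fold, and Bnip3 at -0.89, whereas with free RNA subtracted Bnip3 was at -2.20. In B cells Slc2a1 was at 39.2 and 63.6 CPM (-0.70) and Bnip3 at 29.2 and 54.5 CPM (-0.90). Ndrg1, Ankrd37 and Kdm3a had log2 ratios of -0.71, -0.68 and -0.71, so that 4 of 7 hypoxia members were lower, where 4.4% of all genes were lower and 9.64% higher. Without doublet removal Ndrg1 was at -0.40 and 3 of 7 were lower, and with free RNA subtracted Ndrg1 was at -1.56. Glycolysis medians were -0.11 in NK cells and -0.12 in B cells, and hypoxia medians -0.41 and -0.68. Vegfa was at 106 and 131 CPM in NK cells and 30.1 and 24.7 CPM in B cells, Pgk1 at 433 and 543 CPM and 323 and 344 CPM, and Ldha at 1225 and 1435 CPM and 737 and 907 CPM. Hk2, Adm, Egln3 and Car9 had under 50 UMIs over both libraries in either class. Hif1a had log2 ratios of -0.50 in NK cells and 0.10 in B cells. With free RNA subtracted the B cell glycolysis median was 0.34 and 4 glycolysis and 2 hypoxia members were higher by 1.5-fold.

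**Figure D2:**
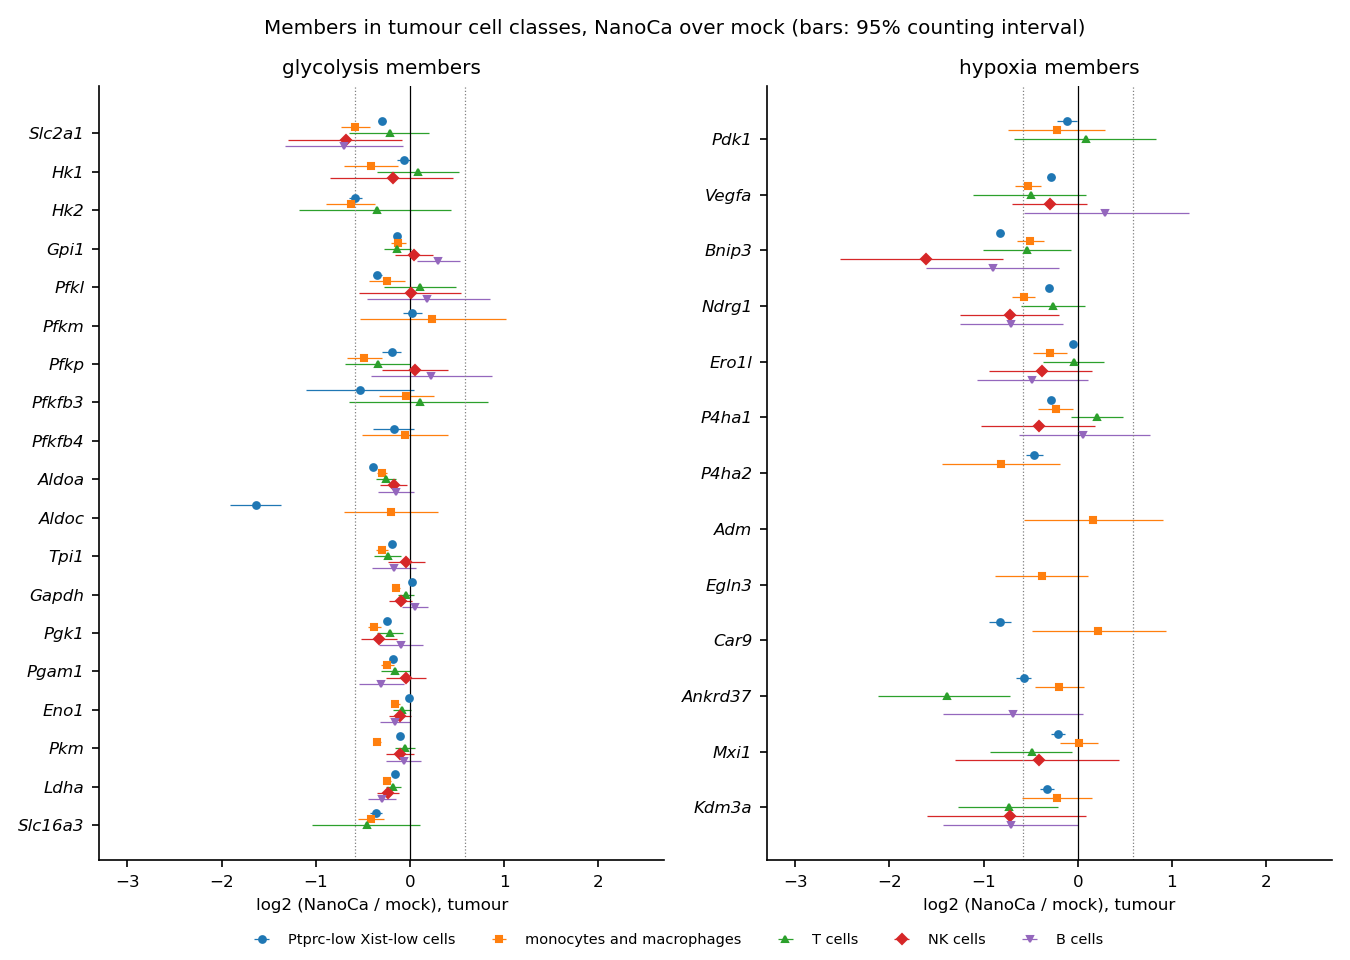
Log2 ratio of NanoCa to mock for each measured member (rows) in 5 tumour cell classes (colours and symbols), glycolysis members left and hypoxia members right, with 95% counting intervals as bars, 0 as a solid line and 1.5-fold as dotted lines. Most points lie left of 0, with Aldoc at -1.64 and Bnip3 and Car9 at -0.82 in Ptprc-low Xist-low cells, and no point lies right of the upper dotted line.

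Within the Ptprc-low cells, 10 clusters had 50 or more cells in each tumour library. Hypoxia sums were lower with NanoCa in all 10 and glycolysis sums in 9. Among the clusters of the mock library the hypoxia sum ran from 508 to 2069 CPM. Cluster 0, led by mitotic genes such as Ube2c and Cdk1, had 443 and 508 CPM of hypoxia members (NanoCa, then mock). Cluster 5, led by Car6 and Lcn2, had 926 and 1186 CPM, with Ndrg1 at 323 and 445 and Ero1l at 228 and 274. Cluster 2, led by Cst6 and Cldn9, had 456 and 705 CPM. The median log2 ratio of its 11 measured hypoxia members was -0.58, against 0.055 over all genes measured in that cluster. Bnip3 was lower with NanoCa in all 10, from 35.1 against 98.3 CPM in cluster 13 to 114 against 171 in cluster 5. Car9 was lower in 8 of 10 and higher in clusters 5 (7.93 against 6.22) and 13 (10.7 against 3.45). Hk2 was lower in all 10, for example 70.8 against 129.7 CPM in cluster 3.

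Cluster 3, led by Zfpm2, Rims2 and Neat1, stood apart. It held the most hypoxia counts, 1865 and 2069 CPM, and the fewest glycolysis counts, 4989 and 4255 CPM. Its glycolysis sum was the single one that was higher with NanoCa. Slc2a1 reached 238 and 205 CPM there, Ndrg1 664 and 735, P4ha1 352 and 411, and Kdm3a 109 and 146. Bnip3, at 42.9 and 69.3 CPM, was in mock the lowest of the 10 clusters, and Ldha was at 832 and 687. The same cells had 7092 and 6748 UMIs per cell, 4.48% and 5.63% mitochondrial UMIs, and 9626 and 13776 CPM of the nuclear RNA Malat1. Cluster 0 had 28241 and 33109.8 UMIs per cell, 1.23% and 1.57%, and 865 and 1209 CPM. The part of depth and nuclear RNA in the values of cluster 3 was not tested. Without it, 2 glycolysis members in place of 1 were lower by 1.5-fold over the Ptprc-low cells. Members were left out of the genes used for clustering, but other genes of the same cells were not, so differences between clusters are descriptions.

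**Figure D3:**
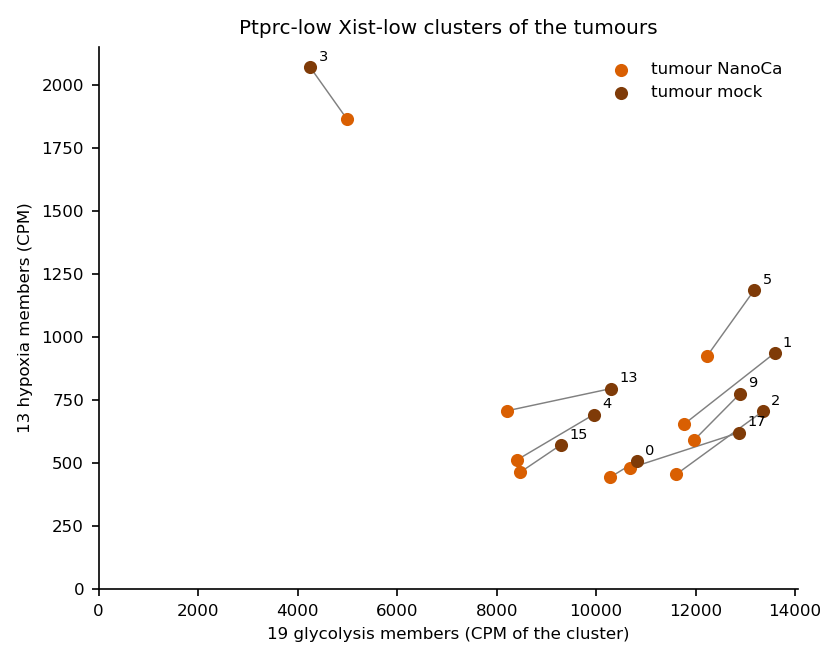
Summed glycolysis members (x axis) and hypoxia members (y axis), in CPM, of the 10 Ptprc-low Xist-low tumour clusters, numbered at the mock point, with a line from mock (dark) to NanoCa (light). Cluster 3 lies alone at the upper left with 2069 (mock) and 1865 (NanoCa) on the y axis, and every NanoCa point lies below its mock point.

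Monocytes and macrophages also differed by cluster. The cluster led by F10, Thbs1 and Lyz1 had 1411 and 1685 CPM of hypoxia members, against 563 and 733 in the cluster led by C1qa, C1qb and C1qc. The Thbs1 cluster also held more glycolysis counts, 12064 and 12464 CPM against 8223 and 10210.5, unlike cluster 3 of the Ptprc-low cells. Vegfa was a large part of this, with 425 and 517 CPM in the Thbs1 cluster and 42.7 and 67.3 in the C1q cluster. Slc2a1 was at 236 and 306 CPM against 65.4 and 99.5, and Egln3 at 34.4 and 48.9 against 4.34 and 2.08. Adm ran the other way, at 7.96 and 7.53 CPM in the C1q cluster and 2.24 and 0.720 in the Thbs1 cluster, on 1 to 33 UMIs. Bnip3 was at 100.1 and 159.5 CPM (NanoCa, mock) in the C1q cluster and 215 and 226 in the Thbs1 cluster. Among tumour monocytes and macrophages thinned to 2000 UMIs, glycolysis and hypoxia UMIs per cell had a Pearson r of 0.630 in 864 NanoCa cells and 0.560 in 638 mock cells. In the Ptprc-low cells r was 0.211 and 0.318, and the cells share a library and a fixed depth.

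In TDLN the glycolysis medians of NanoCa over mock were a little below 0 in the 4 classes described here (T, B, NK and Ptprc-low cells). The hypoxia medians of these classes lay between -0.064 and 0.17. Mature dendritic cells of TDLN also had enough cells for a ratio, but their ratios are not described. Of their sums given above, that of the hypoxia members was higher with NanoCa and that of the glycolysis members lower. TDLN monocytes and macrophages, with 80 NanoCa and 181 mock cells, had too few for a ratio. Their sums were lower with NanoCa, at 6039 and 9171 CPM of glycolysis members and 369 and 570 of hypoxia members (NanoCa, mock). In T cells the glycolysis median was -0.089 (counting range -0.18 to -0.011) over 19 members and the hypoxia median -0.064 (counting range -0.27 to 0.13) over 10, with -0.0031 over all genes. Tpi1, triose-phosphate isomerase, was at 62.8 and 108 CPM (-0.78, 95% interval -0.87 to -0.70), and Aldoc at 1.22 and 2.18 CPM (-0.84). These were lower by 1.5-fold, as were 8.35% of all genes, while 2.62% were higher. Slc2a1 was at 33.9 and 31.8 CPM, Hk2 at 5.27 and 4.76 CPM, Pgk1 at 162 and 188 CPM and Ldha at 708 and 728 CPM, none past the fold. No hypoxia member passed it either: Bnip3 was at 7.01 and 9.43 CPM (-0.43), Vegfa at 7.14 and 8.22 CPM (-0.20) and Egln3 at 9.51 and 10.1 CPM (-0.084). Tpi1 stood at 580.4 and 789 CPM in the Ptprc-low cells, which were 3.27% and 10.9% of the libraries, and with free RNA subtracted its log2 ratio was -0.049 and the glycolysis median was 0.094. Malat1 was higher with NanoCa in TDLN T cells, at 4541 and 3303 CPM, and in B cells, at 4046 and 2816, and its part in the ratios was not tested. The 28 cell cycle genes had a median of -0.40, with 5 lower by 1.5-fold, and Hif1a was at 197 and 172 CPM (0.19).

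TDLN B cells also had lower Tpi1, at 117 and 193 CPM (-0.72, 95% interval -0.81 to -0.62), and lower Gapdh, the dehydrogenase midway through glycolysis, at 809 and 1244 CPM (-0.62, 95% interval -0.66 to -0.58). Of all genes, 8.94% were lower by 1.5-fold. The glycolysis median was -0.13 and the hypoxia median 0.12. Adm was higher, at 2.97 and 1.66 CPM (0.83, 95% interval -0.0054 to 1.72), on 36 and 19 UMIs, where 4.13% of all genes were. Slc2a1 was at 54.3 and 48.1 CPM, Hk2 at 3.79 and 3.06 CPM, Pgk1 at 173 and 225 CPM and Ldha at 552 and 605 CPM, and Bnip3 was at 15.4 and 19 CPM, Vegfa at 6.10 and 6.30 CPM and Hif1a at 91.9 and 93.0 CPM. All 28 cell cycle genes were below a ratio of 1, 15 of them by 1.5-fold, with a median of -0.60. With each cluster given one weight in both libraries, no glycolysis member was past the fold and the median was -0.032. With free RNA subtracted none was lower either, and 2 were higher.

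In TDLN NK cells Aldoa was at 438 and 668 CPM (-0.61), Tpi1 at 148 and 231 CPM (-0.64) and Gapdh at 872 and 1368 CPM (-0.65), 3 of 13 measured glycolysis members, with 8.41% of all genes lower. Ndrg1 was at 40.0 and 18.8 CPM (1.09, 95% interval 0.24 to 1.94), on 27 and 24 UMIs, 1 of 6 measured hypoxia members, with 9.37% of all genes higher. Subtracting free RNA put Tpi1 at -0.47, leaving 2 of 13 glycolysis members past the fold, and Ndrg1 at 2.45. Of 23 measured cell cycle genes, 10 were lower, with a median of -0.31. In the TDLN Ptprc-low cells no glycolysis member was past the fold (median -0.22), and Car9 was the 1 hypoxia member that was, at 14.8 and 5.93 CPM (1.32, 95% interval 1.09 to 1.55), with 7.91% of all genes higher and 7.32% lower. Bnip3 was at 50.9 and 54.6 CPM (-0.10) and Vegfa at 88.9 and 81.8 CPM (0.12) there. Slc2a1, Pgk1 and Eno1 had ratios above 1 in these cells, at 0.25, 0.14 and 0.10 on the log2 scale, and Ldha, Tpi1 and Hk2 ratios below 1, at -0.24, -0.44 and -0.35. Hif1a had log2 ratios of 0.13 in NK cells and 0.20 in Ptprc-low cells. Car9 was thus lower with NanoCa in the tumour and higher in TDLN, a difference that was not tested.

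The comparison of tissues asks how T cells in the tumour differ from those in the draining node, and it gave larger ratios than the treatment did. In mock T cells 11 of 19 glycolysis members and 8 of 10 measured hypoxia members were higher by 1.5-fold in the tumour than in TDLN, with 18.1% of all genes higher and 18.5% lower. Median log2 ratios of tumour to TDLN were 0.79 (counting range 0.41 to 0.95) and 0.96 (counting range 0.72 to 1.31), against -0.045 over all genes. Among transporters, Slc16a3 was at 31.4 and 6.65 CPM (tumour, then TDLN), a log2 ratio of 2.24 (95% interval 1.84 to 2.62), and Slc2a1 at 51.1 and 31.8 CPM (0.68). Hk2 was at 15.7 and 4.76 CPM (1.72, 95% interval 1.18 to 2.24) while Hk1, the constitutive hexokinase, was at 42.5 and 32.5 CPM (0.39). Tpi1 was at 435 and 108 CPM (2.01, 95% interval 1.91 to 2.11), Pgk1 at 455 and 188 CPM (1.28) and Ldha at 1256 and 728 CPM (0.79). Gapdh, at 0.28, and the regulators Pfkfb3 (-0.086) and Pfkfb4 (0.23) stayed under the fold.

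Of the hypoxia members, Bnip3 was at 48.5 and 9.43 CPM, a log2 ratio of 2.36 (95% interval 2.04 to 2.68). Vegfa was at 29.9 and 8.22 CPM (1.86, 95% interval 1.47 to 2.24), Ankrd37 at 35.5 and 11.7 CPM (1.61) and Ndrg1 at 77.3 and 28.9 CPM (1.42). Egln3 was lower in the tumour, at 6.35 and 10.1 CPM (-0.67, 95% interval -1.47 to 0.041), but at -0.57 without doublet removal and -0.51 with free RNA subtracted, both short of the fold. Kdm3a had a log2 ratio of -0.17. Hif1a was at 275 and 172 CPM (0.68), and of 19 further hypoxia genes 9 were higher, Hilpda at 166 and 39.3 CPM among them. Cell cycle genes differed too, with 21 of 28 higher and a median of 1.09. Free RNA was 23.1% in tumour and 13.1% in TDLN mock T cells, and with free RNA subtracted the medians were 0.66 and 0.85. Under that subtraction Slc2a1 was at 0.48, short of the fold, as it was with TMM factors (0.58), while Tpi1 and Vegfa moved up to 2.67 and 3.38. The subtraction took most of the Vegfa counts of TDLN mock T cells, so 3.38 rests on few counts there.

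In NanoCa T cells the medians were 0.61 (counting range 0.49 to 0.84) and 0.81 (counting range 0.39 to 1.22), with 10 of 18 and 6 of 10 members higher and 22.5% of all genes, beside a cell cycle median of 1.5. Bnip3 was at 33.5 and 7.01 CPM (2.26), Slc16a3 at 22.9 and 6.15 CPM (1.90), Hk2 at 12.3 and 5.27 CPM (1.23) and Tpi1 at 369 and 62.8 CPM (2.56). Kdm3a was lower in the tumour, at 25.2 and 55.3 CPM (-1.13, 95% interval -1.60 to -0.70), where 18.4% of all genes were. Hif1a was at 242 and 197 CPM (0.30), Vegfa at 21.1 and 7.14 CPM (1.57) and Ndrg1 at 64.6 and 27.4 CPM (1.24). With free RNA subtracted the medians were 0.32 and 0.35, and Vegfa, Ndrg1 and Eno1 turned to -1.44, -0.40 and -0.0082. These 3 genes thus had no direction in NanoCa T cells that held under that subtraction, while Bnip3, Slc16a3, Hk2 and Tpi1 did not change sign and Hk2 moved to 0.63. The Vegfa value of -1.44 rests on almost no counts, since the subtraction took nearly all of those in tumour NanoCa T cells. Members higher by 1.5-fold were then 6 of 18 and 4 of 10. The difference between the mock and NanoCa comparisons was not tested.

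**Figure D4:**
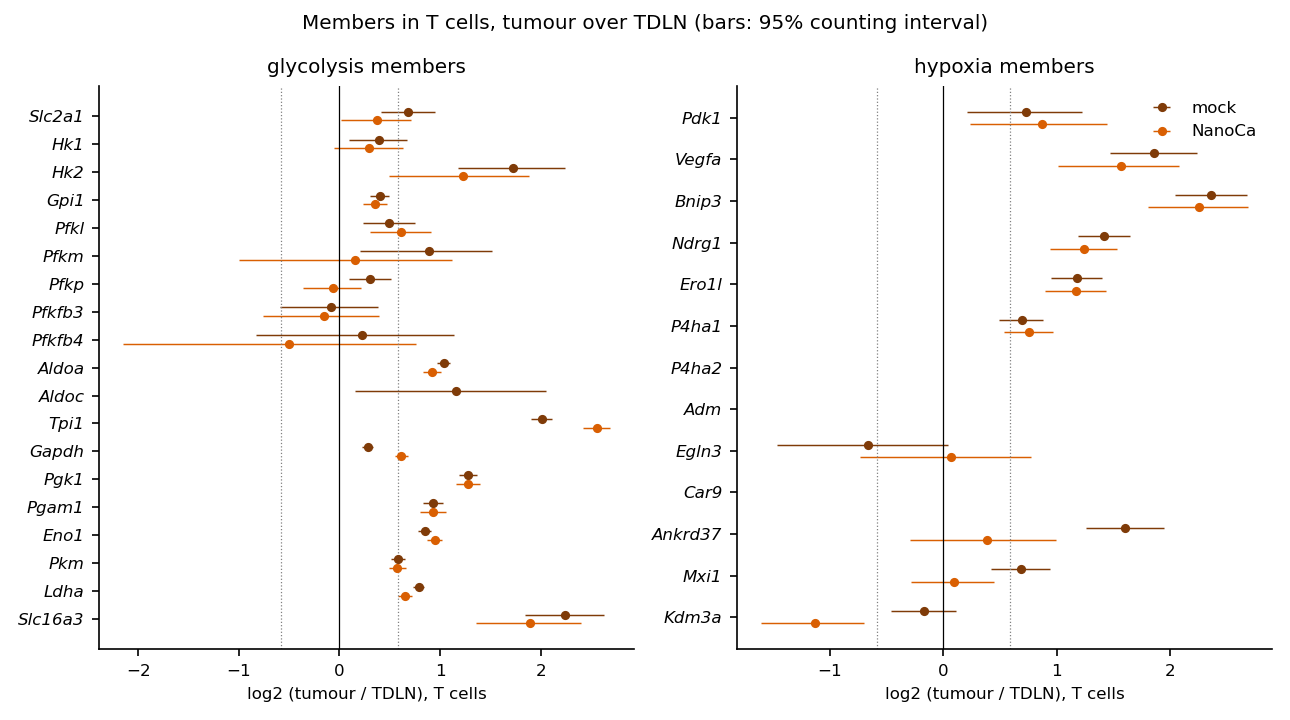
Log2 ratio of tumour to TDLN T cells for each measured member (rows), mock (dark) and NanoCa (light), glycolysis members left and hypoxia members right, with 95% counting intervals as bars and dotted lines at 1.5-fold. Slc16a3, Tpi1 and Bnip3 lie furthest right, with mock values of 2.24, 2.01 and 2.36, and Kdm3a lies left of 0 in NanoCa at -1.13.

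T cell subsets differed within each tissue. The tissue ratios above were not recomputed with equal subset makeup, and the part of makeup in them was not tested. In the tumours, a cytotoxic CD8 subcluster (30 and 111 cells) had 10705 and 9631 CPM of glycolysis members (NanoCa, mock), and regulatory T cells (61 and 48 cells) 9534 and 9468, against 4099 to 5361 in the naive subclusters. Another cytotoxic CD8 subcluster (46 and 48 cells) had 6187 and 6514 CPM, nearer to the naive ones. In the cytotoxic subcluster of 30 and 111 cells the hypoxia sums did not follow, at 366 and 469 CPM. A naive subcluster of 285 and 151 cells had 474 and 553, and the other naive subclusters had 285 to 486. Regulatory T cells had the highest hypoxia sums of the tumour subclusters, 518 and 663 CPM. Free RNA was 12.7% and 12% in that cytotoxic subcluster and 36.3% and 25.1% in the naive subcluster of 285 and 151 cells. Its part in the hypoxia sums was not tested. In TDLN an unnamed subcluster with 5528 and 5145 CPM of cell cycle genes had 8521 and 8899 CPM of glycolysis members but 219.5 and 197 of hypoxia members. A CD8 and a naive subcluster there had 2989 to 3300.1 CPM of glycolysis members.

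The other mock classes gave smaller tissue differences in glycolysis than in hypoxia members. In B cells the medians were 0.35 (counting range -0.11 to 0.67) and 1.52 (counting range 0.95 to 2.00), and 7 of 9 measured hypoxia members were higher in the tumour, where 11.4% of all genes were and 21.2% were lower. Bnip3 was at 54.5 and 19 CPM, Ndrg1 at 81.7 and 20 CPM and Vegfa at 24.7 and 6.30 CPM. With free RNA subtracted the B cell medians were -0.52 and 0.59, and Tpi1, Pgk1 and Eno1, which were higher by 1.5-fold as counted, turned to -0.53, -2.40 and -2.26. Bnip3 and Ndrg1 then stood at 0.31 and 0.24, short of the fold, and 5 of 9 hypoxia members were higher, Vegfa among them at 5.25. That Vegfa value is not a measured ratio. The subtraction took all its counts in tumour B cells, which were set to the floor of 3, and nearly all in TDLN B cells. Only a small part of the Pgk1 and Eno1 counts of tumour B cells was left. In monocytes and macrophages the medians were 0.31 (counting range 0.17 to 0.50) and 0.95 (counting range 0.66 to 1.29), with 7 of 11 hypoxia members higher and 7.08% of all genes, while 18% were lower. Egln3 was at 14.1 and 3.06 CPM (2.20), P4ha2 at 10.8 and 2.19 CPM (2.30) and Bnip3 at 173 and 74.7 CPM (1.21). Vegfa was under the fold, at 181 and 152 CPM, and 4 of 18 glycolysis members, Slc2a1, Hk2, Pgk1 and Ldha, were higher. P4ha2 was at 0.69 to 1.13 under other clusterings and without doublet removal. That glycolysis count was 2 under other clusterings and without doublet removal, and 7 with median-of-ratios factors. In the Ptprc-low cells, medians were 0.21 (counting range 0.19 to 0.23) and 0.60 (counting range 0.56 to 0.69), with 4.78% of all genes higher and 13.7% lower. Bnip3 (126 and 54.6 CPM), Car9 (13.5 and 5.93 CPM), P4ha2 (19.6 and 8.55 CPM) and Ankrd37 (25.1 and 12.4 CPM) were among 6 of 11 hypoxia members higher in the tumour. Of the 19 glycolysis members, Slc2a1 (80.5 and 47.9 CPM), Hk2 (35.2 and 22.8 CPM) and Aldoc were higher by 1.5-fold. Pfkfb3 (0.516 and 0.855 CPM) was lower by that factor, and both Aldoc and Pfkfb3 were at low levels. Vegfa was at 82.7 and 81.8 CPM, and Gapdh was at 1782 and 2655 CPM (-0.58), just short of the fold on the lower side. Their 28 cell cycle genes had a median of -0.29.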

How the data were processed

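Single-cell RNA was measured in 4 libraries of the 10x 3' v2 chemistry. Per the file headers, the deposited UMI counts come from Cell Ranger 7.1.0, and the sources used here do not give the genome build. Barcodes with 200 or more genes and at most 10% mitochondrial UMIs were kept, and the highest Scrublet scores were removed at 0.8% per 1000 barcodes. Cells of each tissue were clustered (scanpy 1.11.5, 2000 variable genes, 30 components, 15 neighbours, leidenalg 0.10.2 at resolution 1) without the members, the other gene lists, or interferon, stress, mitochondrial and ribosomal genes. Clusters were named from 14 marker lists. The CT26-like rule left out 6 of the 11 tumour clusters low in Ptprc and Xist (under 20% of the immune median), so their union was added after the data were seen.

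UMIs were summed by class and library and scaled to a total of 1000000 (CPM). Intervals are exact 95% Poisson intervals for levels and exact conditional binomial intervals for ratios. A list's counting range is the median of its members' lower and of their upper bounds. A ratio of NanoCa to mock was computed for classes with 100 or more cells in each library, or clusters with 50 or more. Members named are those past 1.5-fold with 50 or more UMIs, at most 6 per class by the interval bound nearest a ratio of 1, with Slc2a1, Hk2, Ldha, Pgk1, Vegfa, Bnip3, Car9, Adm, Egln3 and Hif1a throughout; others were picked after their values were seen. A limit for a count of 0 is 3 counts. Free RNA subtraction set counts below 0 to 0, and these entered a ratio as 3 counts. The ratio code was checked on simulated counts. Alternatives used TMM factors (edgeR 4.0.16, R 4.3.3), median-of-ratios factors, other clusterings, no doublet removal, free RNA subtraction and a minimum of 10 UMIs. Equal cluster makeup was a further alternative, used only for ratios of NanoCa to mock within a tissue. The members and lists were chosen with earlier results of these data known.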

Additional observations from a re-analysis of the deposited data

Results flagged for a closer look

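In 4 cases a member's NanoCa to mock ratio in a class had its 95% counting interval on one side of 1 in the tumour and on the other side in TDLN, with at least 1 of the 2 ratios past 1.5-fold. Each difference between tissues was not tested, and 1 library stands behind each value. Kdm3a in T cells had log2 ratios of -0.73 in the tumour and 0.24 in TDLN. Ndrg1 in NK cells had -0.72 and 1.09, and the tumour value was -0.30 without doublet removal. Slc2a1 in B cells had -0.70 and 0.17. Car9 in the Ptprc-low Xist-low cells had -0.82 and 1.32.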

How the results depend on the processing

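The list medians were recomputed 224 times under alternatives, of which 206 stayed within the counting range and 7 changed sign. The 7 were glycolysis in tumour B cells, TDLN T cells and mock B cells over tissues and hypoxia in TDLN T cells (0.083) with free RNA subtracted, hypoxia in TDLN B cells (-0.047) with each cluster given one weight, and hypoxia in TDLN Ptprc-low cells with TMM (-0.065) and median-of-ratios factors (-0.068). Of 715 repeats for single members past 1.5-fold, 52 fell under the fold and 6 changed sign. Alternatives for the Ptprc-low cells, NK cells, tumour B cells, the NanoCa tissue comparison, the mock B, monocyte and macrophage and Ptprc-low tissue comparisons, counts and single members were added after seeing the data. No paired analysis was possible because each group has 1 library, and leaving out a replicate was not possible for the same reason. The causes of the changes below were not tested.

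With TMM factors, the glycolysis median of NanoCa over mock in TDLN Ptprc-low cells was -0.30, and medians of tumour over TDLN were 0.41 (NanoCa T cells, glycolysis), 0.34 and 0.73 (mock Ptprc-low cells, glycolysis and hypoxia). With median-of-ratios factors these were -0.30, 0.44, 0.35 and 0.74. Under TMM, members lower by 1.5-fold became 2 (tumour Ptprc-low, glycolysis), 2 and 3 (monocytes and macrophages, glycolysis and hypoxia), 1 (TDLN Ptprc-low, glycolysis) and 1 (NanoCa T cells over tissues, glycolysis), and 1 glycolysis member was higher in TDLN B cells. Under median-of-ratios factors they became 2 and 4 in monocytes and macrophages, 1 in TDLN Ptprc-low cells, 1 in NanoCa T cells over tissues and 1 lower and 1 higher in TDLN B cells, and 7 glycolysis members were higher in the tumour in mock monocytes and macrophages. These factors shifted the median of all genes by more than 0.1 log2 only in comparisons of tissues, among those reported here: 0.13 and 0.14 in mock Ptprc-low cells, 0.15 and 0.16 in mock monocytes and macrophages, -0.20 and -0.17 in NanoCa T cells, and -0.10 (TMM) in mock T cells.

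With free RNA subtracted, the glycolysis median of NanoCa over mock became 0.34 in tumour B cells and 0.094 in TDLN T cells. Tissue medians became 0.32 and 0.35 in NanoCa T cells and -0.52 and 0.59 in mock B cells. Glycolysis members past the fold became 2 lower in monocytes and macrophages, 4 higher in tumour B cells, 1 higher and 1 lower in TDLN T cells, 2 higher and 0 lower in TDLN B cells, 6 higher and 1 lower in NanoCa T cells over tissues, and 1 higher and 4 lower in mock B cells over tissues. Hypoxia members became 2 lower in monocytes and macrophages, 4 lower in tumour T cells, 2 higher in tumour B cells, 1 higher in TDLN T cells, 3 higher in TDLN B cells, 0 lower in mock T cells over tissues and 2 lower in NanoCa T cells over tissues. Signs turned for Eno1 (-0.0082), Vegfa (-1.44) and Ndrg1 (-0.40) in NanoCa T cells over tissues, and for Tpi1 (-0.53), Pgk1 (-2.40) and Eno1 (-2.26) in mock B cells over tissues. Of these, Vegfa in NanoCa T cells and Pgk1 and Eno1 in mock B cells rest on a small part of the tumour counts.

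With a minimum of 10 UMIs, more members could pass the fold: in the tumour 1 glycolysis lower and 1 hypoxia higher in T cells, 1 glycolysis higher in NK cells, and 1 glycolysis higher and 3 lower in B cells. In TDLN it was 1 hypoxia lower in T cells, 2 glycolysis and 2 hypoxia higher in NK cells and 2 hypoxia higher in Ptprc-low cells, with 7 glycolysis higher in mock B cells over tissues. Without doublet removal, the tissue median of glycolysis in mock Ptprc-low cells was 0.19, and counts became 2 (tumour Ptprc-low, glycolysis lower), 2 (monocytes and macrophages, hypoxia lower), 2 (TDLN B, hypoxia higher), 1 (TDLN NK, glycolysis higher), 0 (mock T over tissues, hypoxia lower) and 2 (mock monocytes and macrophages over tissues, glycolysis higher). At resolution 0.5 that tissue median in monocytes and macrophages was 0.17, with 2 glycolysis higher and 1 hypoxia lower, and 2 glycolysis were lower with NanoCa there. With all variable genes used for clustering, counts were 1 lower (CT26-like, glycolysis), 2 lower (monocytes and macrophages, glycolysis), and over tissues 2 higher and 1 lower in mock monocytes and macrophages. With each cluster given one weight in both libraries, the hypoxia median in tumour Ptprc-low cells was -0.34, the glycolysis median in TDLN B cells -0.032, and counts lower were 1 and 1 (CT26-like, glycolysis and hypoxia), 4 (tumour T, hypoxia) and 0 (TDLN B, glycolysis). Without cluster 3, 2 glycolysis members were lower in the tumour Ptprc-low cells. Depth limits T, NK and B cell values of low members such as Car9, Adm and Egln3.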

Other observations

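A TDLN cluster given no name, led by Cma1, Mmp9, Mcpt4 and Ctsk with the mast cell genes Tpsb2, Tpsab1 and Cpa3, had 16149.7 CPM of glycolysis members in mock (104 cells) and 6508 in NanoCa (115 cells), and 947 and 438 CPM of hypoxia members. The mock glycolysis sum exceeded that of any named class of 50 or more cells. Without doublet removal these genes fell in 2 clusters. One led by Cma1 and Mcpt4 held 103 mock and 62 NanoCa cells, and one led by Ctsk and Mmp9 held 5 and 54. The part of cell makeup in the sums of the unnamed cluster was not tested. An unnamed tumour cluster led by Lrmda, Psd3 and Mertk had few glycolysis counts, 4718 and 5575 CPM (NanoCa, mock), beside many hypoxia counts, 1149.6 and 1406 CPM, at 2022 and 3044 UMIs per cell. A tumour cluster led by Hbb-bs and Cxcl13 had 10039 and 10634 CPM of glycolysis members. A naive TDLN T cell subcluster of low depth (345 and 207 cells) had hypoxia sums of 661 and 675 CPM with glycolysis sums of 2032 and 2654, the same pairing of few glycolysis and many hypoxia counts as cluster 3 of the Ptprc-low cells.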
